A study of Mus musculus with 12 samples.

Results

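The 10 genes described here encode the carriers through which absorptive enterocytes of the small intestine take up dietary sugars, short peptides and amino acids and pass them to the blood: Slc5a1, Slc2a2, Slc2a5, Slc15a1, Slc6a19, Slc7a9, Slc3a1, Slc1a1, Slc7a7 and Slc7a8. They were found by gene name, each name stood on 1 row, and they are 10 of the 54532 genes in the deposited tables. Small intestinal tissue of C57BL/6J mice was profiled by RNA-seq in 12 libraries of 4 groups of 3: intestinal epithelial cell-specific Piezo1 knockout with necrotizing enterocolitis (CKO NEC), floxed mice with necrotizing enterocolitis (flox NEC), the knockout without injury (CKO control) and floxed mice without injury (flox control). Piezo1 is a mechanically gated cation channel, and the title of the study links it to NEC through calcium and CaMKII. The mice set against the knockout are floxed, not wild type. The sources used here name no Cre driver, no age, no way of inducing NEC and no sampled stretch of small intestine. No label says that the 3 libraries of a group came from separate mice, so each p-value measures the spread between these libraries, which may be technical.

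Absorption across an enterocyte needs a carrier at each face of the cell. At the brush border, SGLT1 (Slc5a1) brings in glucose and galactose with sodium, GLUT5 (Slc2a5) brings in fructose, and PepT1 (Slc15a1) brings in short peptides with protons. Slc6a19 is the main sodium-coupled carrier of neutral amino acids, Slc1a1 takes up glutamate and aspartate, and Slc7a9 exchanges cystine and dibasic amino acids once it is bound to its heavy chain, Slc3a1. At the basolateral face, GLUT2 (Slc2a2) lets sugars out, Slc7a7 lets dibasic amino acids out in exchange for neutral ones, and Slc7a8 exchanges neutral amino acids, the last pair each bound to the heavy chain Slc3a2. In young rodents the fructose carrier is low before weaning. Loss of SLC5A1 in people causes glucose-galactose malabsorption, loss of SLC7A9 or SLC3A1 causes cystinuria, loss of SLC6A19 causes Hartnup disorder and loss of SLC7A7 causes lysinuric protein intolerance.

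The members are spread over 8 chromosomes of GRCm38 in the deposited annotation. The sugar carriers lie on chromosome 5 (Slc5a1, 33104219 to 33162870, plus strand), chromosome 3 (Slc2a2, 28697903 to 28731359, plus) and chromosome 4 (Slc2a5, 150119283 to 150144169, plus). Chromosome 14 holds 3 members, all on the minus strand: Slc7a7 (54369442 to 54417780), Slc7a8 (54722209 to 54781946) and Slc15a1 (121459621 to 121505252). The other amino acid carriers lie on chromosome 13 (Slc6a19, 73679745 to 73704865, minus), chromosome 7 (Slc7a9, 35448796 to 35466036, plus), chromosome 17 (Slc3a1, 85028347 to 85064243, plus) and chromosome 19 (Slc1a1, 28835049 to 28913960, plus).

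The promoters of the 3 members with the largest CKO minus flox difference in uninjured tissue are shown because those differences recur below, and each of these windows ends before the annotated start of its gene. Each window is the 250 bases before the RefSeq start (GRCm38.p6), 5′ to 3′ on the strand of the gene, with motif matches in capitals. The windows lie at chr17:85028097-85028346 (Slc3a1, plus strand), chr14:121505255-121505504 (Slc15a1, minus strand) and chr5:33103969-33104218 (Slc5a1, plus strand).
Slc3a1: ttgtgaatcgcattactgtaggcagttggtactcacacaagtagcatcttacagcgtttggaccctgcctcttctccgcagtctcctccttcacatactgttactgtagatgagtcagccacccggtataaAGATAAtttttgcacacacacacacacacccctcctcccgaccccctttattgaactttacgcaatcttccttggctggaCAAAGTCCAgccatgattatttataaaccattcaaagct
Slc15a1: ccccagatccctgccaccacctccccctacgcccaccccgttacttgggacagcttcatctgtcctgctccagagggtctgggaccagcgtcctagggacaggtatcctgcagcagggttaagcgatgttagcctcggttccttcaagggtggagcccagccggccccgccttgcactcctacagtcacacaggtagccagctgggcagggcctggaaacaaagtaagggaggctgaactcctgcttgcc
Slc5a1: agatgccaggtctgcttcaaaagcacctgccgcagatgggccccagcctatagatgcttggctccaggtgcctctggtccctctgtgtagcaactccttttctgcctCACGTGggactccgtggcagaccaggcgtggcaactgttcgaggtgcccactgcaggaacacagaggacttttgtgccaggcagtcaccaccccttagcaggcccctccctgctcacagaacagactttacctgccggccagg

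Motifs of 5 kinds known from intestinal promoters were searched on both strands: GTTAAT (HNF1 factors), CAAAGTCCA (HNF4 factors), AGATAA (of the GATA family), TTTATG (CDX2) and CACGTG (an E-box). No match overlapped another in these windows. The Slc3a1 window held CAAAGTCCA 39 bases and AGATAA 119 bases before the start. The Slc5a1 window held CACGTG 143 bases before the start, and the Slc15a1 window held none of the 5. Over 32851 RefSeq windows of the same length, 0.384% held CAAAGTCCA, 9.99% held AGATAA, 6.43% held GTTAAT, 10.8% held TTTATG and 6.02% held CACGTG. All 10 members matched the RefSeq table, with 15 windows between them, and the windows of 1 member held GTTAAT, of 1 CAAAGTCCA, of 3 AGATAA, of 0 TTTATG and of 1 CACGTG. Counted by gene in the same way over 27025 genes, the shares were 7.49%, 0.451%, 11.4%, 12.4% and 6.86%, in that order. A match is a run of letters and not a bound site.

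Values are FPKM, reads per kilobase of gene and library size, as deposited in 1 table for the NEC libraries and 1 for the uninjured ones. The libraries held 13057724 to 16821130 reads, and single members between 39 (Slc2a5) and 15337 (Slc6a19) reads in a library. Piezo1, the targeted gene, had 5.38, 5.58 and 3.23 FPKM with NEC in CKO, against 7.38, 7.23 and 6.76 FPKM in the flox NEC libraries. The libraries did not overlap, but Piezo1 was not called there by limma (log2 change -0.53 ± 0.18, SE, adjusted p = 0.840). Without injury Piezo1 stood at 1.71, 1.03 and 0.926 FPKM in the CKO libraries, against 1.38, 1.44 and 1.09 FPKM in the flox libraries. The uninjured groups overlap, so Piezo1 does not tell the genotypes apart in uninjured bulk tissue. CKO below means labelled as CKO. All 12 of 12 pan-epithelial markers were detected in every group, and their summed FPKM was 3745 to 4915 in CKO NEC, 3579 to 4244 in flox NEC, 4560 to 5641 in CKO control and 3828 to 5124 in flox control. In bulk tissue, fewer enterocytes and less RNA of a carrier per enterocyte cannot be told apart.

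For levels across the 4 groups, and for all NEC against control comparisons, FPKM were put on 1 scale over the 12 libraries (jointly scaled FPKM), because the deposited tables were scaled separately and differ by 0.15 log2 on average. Slc7a9 had the highest mean in uninjured tissue of both genotypes, and Slc5a1 had the highest in NEC. The carriers fell into the same broad tiers everywhere, with Slc5a1, Slc6a19 and Slc7a9 at the top, Slc3a1, Slc7a7 and Slc7a8 in the middle, Slc2a2 and Slc15a1 below them, and Slc1a1 and Slc2a5 lowest. On this scale Slc7a9 averaged 87.8 ± 29.5 FPKM in CKO NEC, 79.9 ± 10.1 in flox NEC, 188 ± 15.4 in CKO control and 149 ± 22.0 in flox control (SD, n = 3 each). Slc5a1 averaged 137 ± 51.3 FPKM in CKO NEC, 137 ± 30.0 in flox NEC, 111 ± 30.9 in CKO control and 61.1 ± 15.0 in flox control. Slc2a5 averaged 2.72 ± 1.52 FPKM in CKO NEC, 2.28 ± 0.275 in flox NEC, 1.26 ± 0.381 in CKO control and 1.30 ± 0.491 in flox control. The fructose carrier was thus the lowest member in all 4 groups.

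Neighbours in the order often could not be separated by their spread. In CKO NEC each member down to Slc7a7 overlapped the next below it, and gaps stood only between Slc7a8 and Slc2a2 and between Slc15a1 and Slc1a1. In flox NEC the only overlapping neighbours were Slc5a1 with Slc6a19 and Slc2a2 with Slc15a1. In CKO control Slc7a9, Slc6a19 and Slc5a1 each overlapped the next, as Slc2a2 did with Slc15a1, and the other neighbours stood apart. In flox control Slc7a9 and Slc6a19 stood apart from each other and from Slc5a1, while Slc5a1, Slc7a7 and Slc3a1 each overlapped the next, as did Slc15a1 and Slc1a1. Slc3a1 stood at rank 4 in CKO NEC, flox NEC and CKO control, and at rank 5, below Slc7a7, in flox control.

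**Figure D1:**
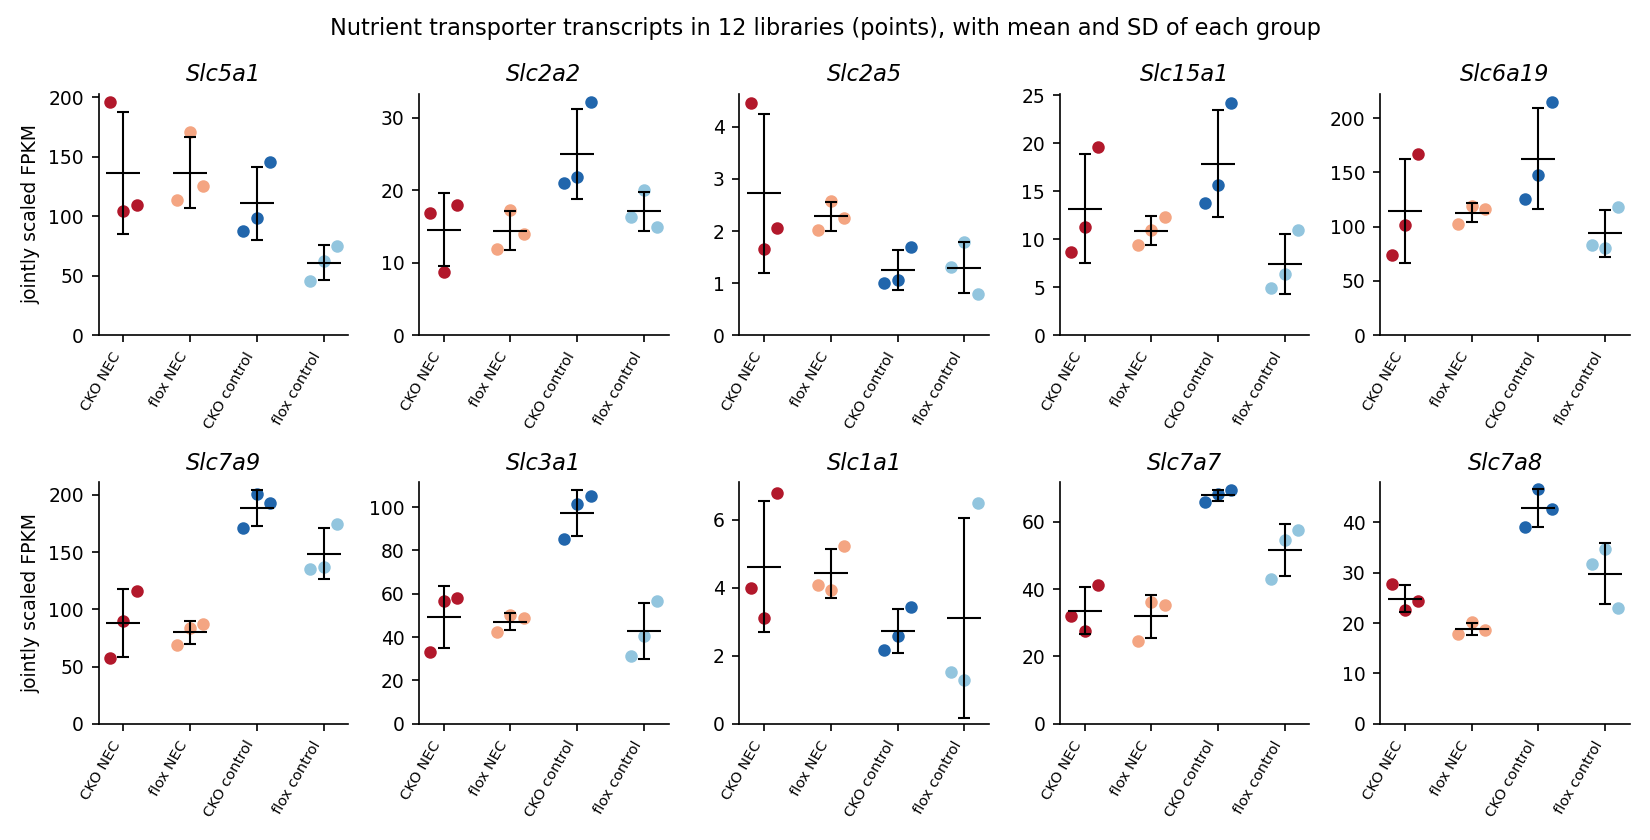
Jointly scaled FPKM of each of the 10 transporters on linear axes from 0, with 1 point per library, in CKO NEC, flox NEC, CKO control and flox control; bars are the group mean and SD. Slc7a9, Slc3a1, Slc7a7 and Slc7a8 had lower means in both NEC groups than in CKO control, and Slc2a5 had higher means in both NEC groups than in either uninjured group.

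In uninjured tissue most carriers stood higher in the CKO libraries than in the flox libraries, but no member passed the adjusted threshold. The members' median log2 change was 0.52 and 9 of the 10 lay above 0, whereas the median over all 13300 genes tested was 0.04. With limma and Benjamini-Hochberg adjustment over all genes, 1 gene was called (0.00752%), and 0 of 10 members. At an unadjusted p under 0.05, 7 of 10 members and 3849 genes (28.9%) passed. The CKO and flox libraries did not overlap, with CKO higher, for 7 of the 10 members, against 21.8% of all genes tested. Genotypes were compared on the deposited FPKM plus 1, on the log2 scale, so that changes of low genes are understated.

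The sugar carriers differed among themselves. Slc5a1, the sodium-glucose carrier, had 87.1, 98.5 and 145 FPKM in CKO control libraries, against 45.2, 62.1 and 74.9 FPKM in flox control libraries. All CKO values lay above all flox values, with a log2 change of 0.84 ± 0.25 (SE, adjusted p = 0.0875). GLUT2, Slc2a2, had 20.9, 21.7 and 31.9 FPKM in CKO control libraries, against 16.2, 20.0 and 14.8 FPKM in flox control libraries. The groups were again apart, by less than for Slc5a1 (log2 change 0.51 ± 0.19, adjusted p = 0.142). Slc2a5, the fructose carrier, had 1.001, 1.06 and 1.68 FPKM in CKO control libraries, against 1.30, 1.77 and 0.794 FPKM in flox control libraries. Those values overlapped completely, and the log2 change was -0.02 ± 0.22 (adjusted p = 0.967, 95% interval -0.53 to 0.49).

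Among brush border carriers of peptides and amino acids, Slc3a1 and Slc15a1 had the largest differences. Slc3a1, the heavy chain of the cystine carrier, had 84.7, 101 and 104 FPKM in CKO control libraries, against 31.1, 40.4 and 56.2 FPKM in flox control libraries. The lowest CKO library was well above the highest flox library, and the log2 change was 1.20 ± 0.22 (adjusted p = 0.0547, 95% interval 0.68 to 1.71). PepT1, Slc15a1, had 13.7, 15.5 and 24.0 FPKM in CKO control libraries, against 4.895, 6.31 and 10.9 FPKM in flox control libraries. Its groups were also apart (log2 change 1.19 ± 0.30, adjusted p = 0.0709, 95% interval 0.48 to 1.90). With limma-voom on recovered reads both passed, Slc3a1 at 1.22 (adjusted p = 0.0370) and Slc15a1 at 1.31 (adjusted p = 0.0492). It called 591 of 13300 genes higher. Both also passed without flox control 3, at adjusted p = 0.0428 each, in a comparison in which 830 genes then passed.

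Slc6a19, the neutral amino acid carrier, had 125, 147 and 214 FPKM in CKO control libraries, against 82.3, 79.9 and 118 FPKM in flox control libraries. The gap between the groups was narrow because flox control 3 stood close to the lowest CKO library (log2 change 0.77 ± 0.24, adjusted p = 0.0966). Slc7a9, the light chain that works with Slc3a1, had 170.2, 200.1 and 191 FPKM in CKO control libraries, against 134, 136 and 173 FPKM in flox control libraries. Here flox control 3 reached into the CKO range, and the log2 change was 0.35 ± 0.15 (adjusted p = 0.181). The glutamate carrier Slc1a1 had 2.16, 2.57 and 3.40 FPKM in CKO control libraries, against 1.52, 1.28 and 6.45 FPKM in flox control libraries. Flox control 3 was the highest of the 6, and the log2 change of 0.07 ± 0.44 (adjusted p = 0.928) became 0.62 when it was left out.

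Both basolateral amino acid exchangers stood higher in every CKO library. Slc7a7, which exports dibasic amino acids, had 65.7, 68.0 and 68.8 FPKM in CKO control libraries, against 42.8, 54.1 and 57.2 FPKM in flox control libraries. The 3 CKO libraries lay close together above every flox library (log2 change 0.40 ± 0.14, adjusted p = 0.120). Slc7a8, the neutral exchanger, had 38.9, 46.3 and 42.4 FPKM in CKO control libraries, against 31.6, 34.4 and 22.9 FPKM in flox control libraries. Its groups were apart as well, by 0.52 ± 0.17 on the log2 scale (adjusted p = 0.106).

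Markers of some other cell types lay the opposite way between these groups. The median CKO minus flox log2 change was -0.87 for smooth muscle markers and -0.78 for fibroblast and matrix markers, with 0 called. It was -0.07 for immune cell markers and 0.02 for crypt and stem cell markers. The summed jointly scaled FPKM of 10 smooth muscle markers was 222 to 662 in CKO control and 759 to 968 in flox control, and that of 12 fibroblast and matrix markers was 136 to 326 in CKO control and 323 to 526 in flox control, with none of either list at 0 in any group. Mitochondrially encoded genes took 5.11% to 6.76% of reads in CKO control, against 11.1% to 14.3% in flox control. Of the 12 pan-epithelial markers 8 lay above 0 for CKO minus flox, with a median log2 change of 0.13 and 0 called. Those with the smallest p were Cdh1 (E-cadherin), at 0.71 ± 0.17 (adjusted p = 0.0680), and Cdh17, at 1.18 ± 0.29 (adjusted p = 0.0678), while Krt19, Krt18, Lgals4 and Cldn3 lay between -0.27 and -0.09. Of 15 other enterocyte markers tested 11 lay above 0, with a median of 0.26 and 0 called. Of these, Ace stood at 1.26 ± 0.23 and Apob at 0.99 ± 0.19 (adjusted p = 0.0547 each). The part of cell composition or of the mitochondrial share in the transporter differences was not tested.

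In NEC the CKO and flox libraries overlapped for 9 of the 10 carriers. No member was called by limma, at adjusted p from 0.840 to 0.997, nor was any of 13673 genes (0%). At an unadjusted p under 0.05, 1 member and 599 genes (4.38%) passed, and limma-voom called 0 members. The members' median log2 change was 0.03, beside 0.01 over all genes tested. The exception to the overlap was Slc7a8, which had 30.6, 24.9 and 26.4 FPKM in CKO NEC libraries, against 19.9, 22.4 and 20.5 FPKM in flox NEC libraries. Every CKO value was above every flox value, a pattern that 4.83% of all genes tested showed in that direction and 6.14% in the other, and the log2 change was 0.37 ± 0.11 (adjusted p = 0.840, 95% interval 0.10 to 0.64). The smooth muscle sum was 560 to 2131 FPKM in CKO NEC and 1884 to 2967 in flox NEC, and its part in the value of Slc7a8 was not tested.

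The other carriers in NEC had similar group means and a wide spread among CKO libraries. Slc3a1 had 36.4, 62.9 and 63.1 FPKM in CKO NEC libraries, against 47.4, 55.6 and 53.9 FPKM in flox NEC libraries. Slc15a1 had 9.59, 12.4 and 21.2 FPKM in CKO NEC libraries, against 10.4, 12.1 and 13.6 FPKM in flox NEC libraries. In both genes the CKO libraries reached below and above all flox libraries, and the log2 changes were 0.01 ± 0.22 for Slc3a1 and 0.18 ± 0.26 for Slc15a1. Slc5a1 had 216, 116 and 119 FPKM in CKO NEC libraries, against 127, 189 and 138 FPKM in flox NEC libraries. CKO NEC 1 stood far above its group for this gene, and the log2 change was -0.05 ± 0.28 with a 95% interval of -0.70 to 0.59.

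Slc6a19 had 81.5, 112 and 181 FPKM in CKO NEC libraries, against 115, 132 and 129 FPKM in flox NEC libraries. Slc7a9 had 63.2, 99.8 and 126 FPKM in CKO NEC libraries, against 76.3, 92.7 and 96.6 FPKM in flox NEC libraries. For both amino acid carriers CKO NEC 1 was the lowest and CKO NEC 3 the highest of the 6 libraries. Slc2a2 had 18.7, 9.73 and 19.5 FPKM in CKO NEC libraries, against 13.3, 19.1 and 15.5 FPKM in flox NEC libraries. Slc7a7 had 35.3, 30.7 and 44.7 FPKM in CKO NEC libraries, against 27.3, 40.1 and 38.9 FPKM in flox NEC libraries. These basolateral carriers overlapped between the genotypes too. Slc1a1 had 4.39, 3.45 and 7.33 FPKM in CKO NEC libraries, against 4.54, 4.36 and 5.78 FPKM in flox NEC libraries. Slc2a5 had 4.92, 1.84 and 2.22 FPKM in CKO NEC libraries, against 2.26, 2.85 and 2.48 FPKM in flox NEC libraries. The fructose carrier's CKO mean rests on CKO NEC 1, the only library above 3 FPKM.

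**Figure D2:**
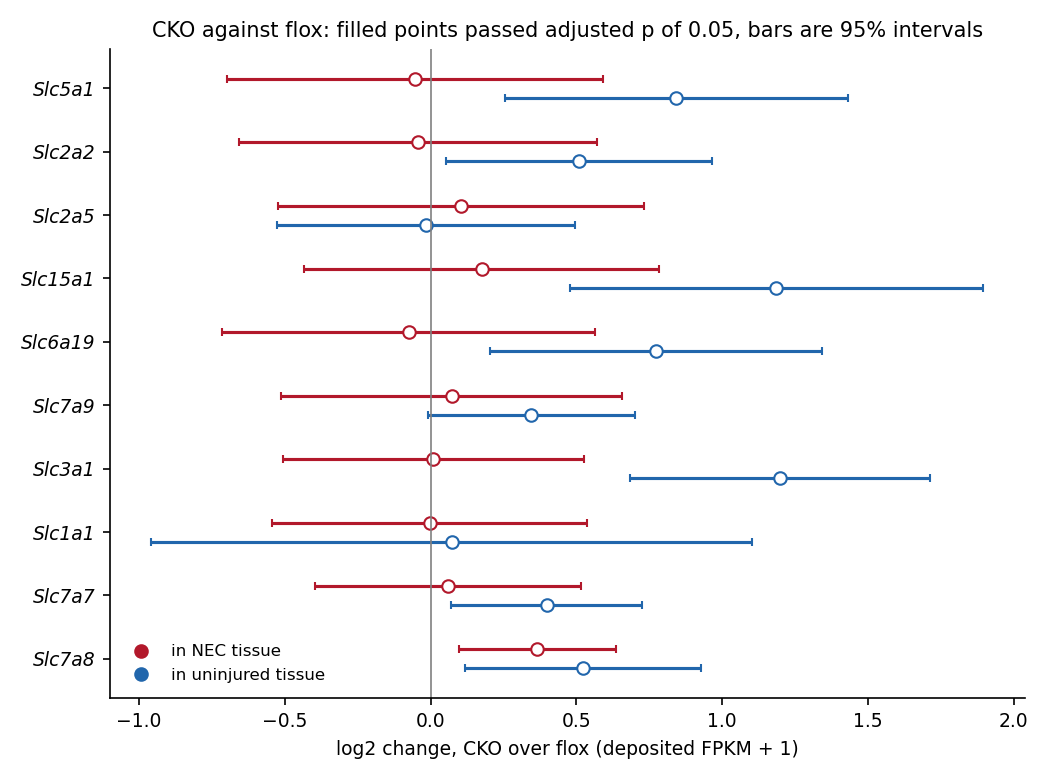
CKO over flox log2 change of deposited FPKM plus 1 for each transporter, in NEC tissue (red) and uninjured tissue (blue); bars are 95% intervals and no point passed the adjusted p of 0.05. In uninjured tissue the intervals of 7 members lie above 0, and in NEC tissue only that of Slc7a8 does.

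With NEC the carriers moved in both directions. Against uninjured flox tissue, flox NEC tissue had more of the glucose and fructose carriers of the brush border and less of the cystine light chain and the basolateral amino acid exchangers. Of the 10 members, 2 rose (28.7% of all genes tested were called higher) and 3 fell (27.8% were called lower), with a members' median log2 change of 0.23, beside 0.01 over all 13730 genes tested. Of all genes, 56.5% were called in either direction there, and 61.6% had an unadjusted p under 0.05. Against uninjured CKO tissue, CKO NEC tissue had 0 members called higher (17.5% of genes) and 4 called lower (20.4% of genes), with a members' median of -0.66, beside -0.02 over all 13355 genes tested. There 37.9% of all genes were called in either direction, and 49.0% had an unadjusted p under 0.05. Condition and deposited table are the same split, so anything that differs between the tables beyond scale cannot be told apart from NEC.

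Slc7a9 fell in both genotypes. On the joint scale it had 57.3, 90.1 and 116 FPKM in CKO NEC libraries, against 171, 201 and 193 FPKM in CKO control libraries, and 68.5, 83.7 and 87.5 FPKM in flox NEC libraries, against 135, 137 and 174 FPKM in flox control libraries. No NEC library reached any uninjured library, and the log2 changes were -1.15 ± 0.26 in CKO (adjusted p = 0.0142) and -0.89 ± 0.15 in flox (adjusted p = 0.00223). With quantile normalization these changes were smaller, -0.73 and -0.47, and still passed.

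The basolateral exchangers fell in both genotypes as well. Slc7a7 had 32.0, 27.7 and 41.3 FPKM in CKO NEC libraries, against 66.1, 68.3 and 69.3 FPKM in CKO control libraries (log2 change -1.01 ± 0.17, adjusted p = 0.00552). In flox mice Slc7a7 had 24.5, 36.2 and 35.2 FPKM with NEC, against 43.0, 54.5 and 57.5 FPKM without (log2 change -0.69 ± 0.18, adjusted p = 0.0147). Slc7a8 had 27.7, 22.5 and 24.3 FPKM in CKO NEC libraries, against 39.1, 46.6 and 42.7 FPKM in CKO control libraries (log2 change -0.76 ± 0.14, adjusted p = 0.00668). Both exchangers were apart between conditions in both genotypes. In flox mice Slc7a8 had 17.8, 20.2 and 18.6 FPKM with NEC, against 31.8, 34.7 and 23.0 FPKM without (log2 change -0.62 ± 0.16, adjusted p = 0.0137). In flox mice both calls were lost with quantile normalization, at adjusted p = 0.0570 for Slc7a7 and 0.0511 for Slc7a8. Their shared heavy chain Slc3a2, chosen after its values were seen, averaged 41.3 ± 6.27 FPKM in CKO NEC and 94.4 ± 21.7 in CKO control, and 37.0 ± 4.73 in flox NEC and 77.6 ± 10.8 in flox control (SD, n = 3 each). It fell in CKO by 1.16 ± 0.20 and in flox by 1.05 ± 0.14 on the log2 scale (adjusted p = 0.00609 and 8.83e-04).

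Slc3a1, the heavy chain partner of Slc7a9, was called in CKO tissue and not in flox tissue. It had 32.9, 56.8 and 58.2 FPKM in CKO NEC libraries, against 85.2, 101 and 105 FPKM in CKO control libraries. The NEC libraries were all below the uninjured ones, with a log2 change of -1.003 ± 0.24 (adjusted p = 0.0164). The call was lost without CKO control 2 (adjusted p = 0.0519) and with quantile normalization (-0.64, adjusted p = 0.0567). In flox mice Slc3a1 had 42.5, 50.2 and 48.8 FPKM with NEC, against 31.3, 40.6 and 56.5 FPKM without. Those groups overlapped, and the log2 change was 0.17 ± 0.21 (adjusted p = 0.496, 95% interval -0.31 to 0.66). With quantile normalization it passed in flox (0.47, adjusted p = 0.0325), with a sign opposite to that of the CKO change.

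Slc5a1 was called in flox tissue and not in CKO tissue. It had 114, 171 and 125 FPKM in flox NEC libraries, against 45.5, 62.5 and 75.3 FPKM in flox control libraries, with every NEC library higher (log2 change 1.16 ± 0.22, adjusted p = 0.00361). In CKO mice it had 196, 104 and 109.8 FPKM with NEC, against 87.6, 98.9 and 146 FPKM without. The CKO groups overlapped (log2 change 0.27 ± 0.30, adjusted p = 0.500). Slc2a5 had 2.03, 2.57 and 2.25 FPKM in flox NEC libraries, against 1.31, 1.78 and 0.799 FPKM in flox control libraries, a log2 change of 0.53 ± 0.18 (adjusted p = 0.0365). In CKO mice it had 4.46, 1.66 and 2.05 FPKM with NEC, against 1.01, 1.06 and 1.69 FPKM without, overlapping by 1 library (log2 change 0.66 ± 0.28, adjusted p = 0.102). The flox call of this low gene was lost with no filter on low values (adjusted p = 0.102), with equal library medians (0.0636), with all 4 groups in 1 fit (0.0960), and without flox control 1 (0.0734), flox control 3 (0.0672), flox NEC 1 (0.0641), flox NEC 2 (0.115) or flox NEC 3 (0.0902).

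The remaining carriers were not called in either genotype by the limma fit of each genotype, though some calls appeared under other settings. Slc2a2, GLUT2, averaged 14.6 ± 5.05 FPKM in CKO NEC and 25.0 ± 6.23 in CKO control, with no overlap (log2 change -0.77 ± 0.29, adjusted p = 0.0696), and 14.4 ± 2.67 in flox NEC and 17.1 ± 2.70 in flox control (-0.23 ± 0.16, adjusted p = 0.258). Slc6a19 averaged 114 ± 48.0 FPKM in CKO NEC and 163 ± 46.7 in CKO control (-0.55 ± 0.33, adjusted p = 0.225), and 113 ± 8.83 in flox NEC and 93.9 ± 21.4 in flox control (0.28 ± 0.17, adjusted p = 0.192). Slc15a1 averaged 13.2 ± 5.68 FPKM in CKO NEC and 17.8 ± 5.56 in CKO control (-0.45 ± 0.31, adjusted p = 0.290), and 10.9 ± 1.49 in flox NEC and 7.42 ± 3.17 in flox control (0.55 ± 0.25, adjusted p = 0.0959). Slc6a19 and Slc15a1 thus had values of opposite sign in the genotypes, none past the threshold. Slc1a1 averaged 4.62 ± 1.91 FPKM in CKO NEC and 2.73 ± 0.638 in CKO control (0.55 ± 0.25, adjusted p = 0.119), and 4.41 ± 0.709 in flox NEC and 3.10 ± 2.93 in flox control (0.62 ± 0.42, adjusted p = 0.245). Without flox control 3, Slc15a1 (0.84, adjusted p = 0.00298), Slc6a19 (0.46, adjusted p = 0.0111) and Slc1a1 (1.16, adjusted p = 6.46e-04) passed in flox tissue, where 4155 of 13234 genes were then called higher. With quantile normalization Slc6a19 passed in flox (0.73, adjusted p = 0.00239), where 4067 of 13730 genes were called higher. On the deposited scale Slc15a1 passed in flox (0.70, adjusted p = 0.0451), where 4906 of 13928 genes were called higher. With all 4 groups in 1 fit Slc2a2 passed in CKO (-0.77, adjusted p = 0.0296), where 3355 of 14609 genes were called lower.

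**Figure D3:**
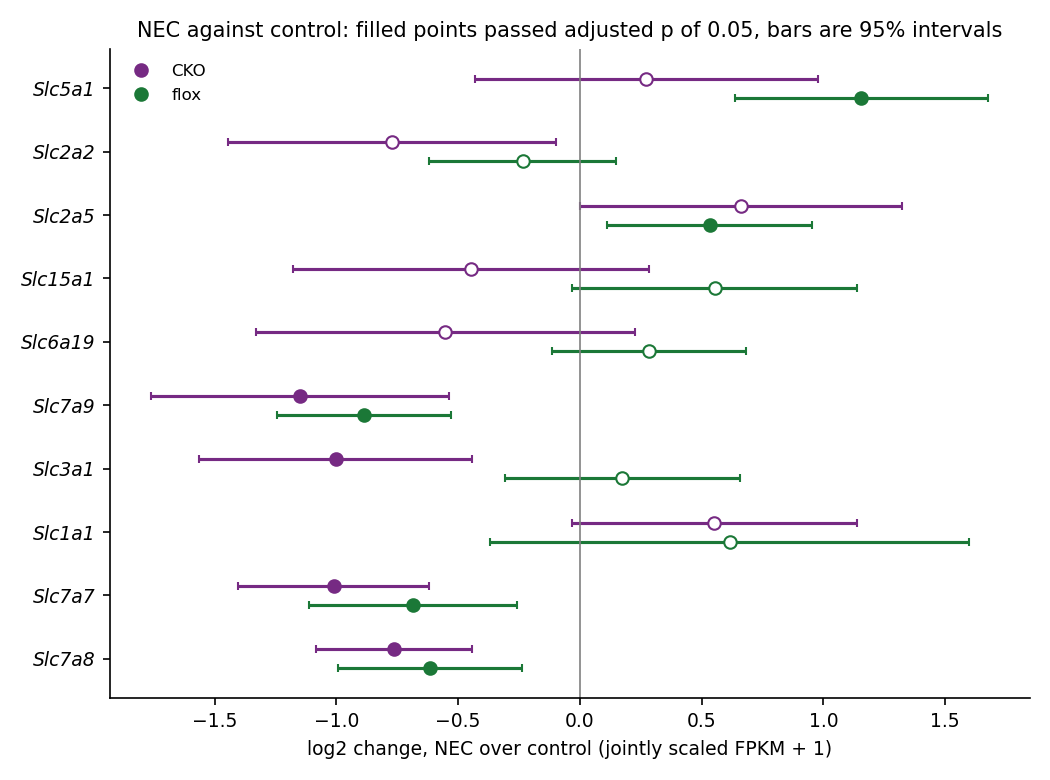
NEC over uninjured log2 change of jointly scaled FPKM plus 1 for each transporter, within CKO (purple) and within flox (green); bars are 95% intervals and filled points passed the adjusted p of 0.05. Slc7a9, Slc7a7 and Slc7a8 are filled below 0 in both genotypes, Slc3a1 is filled below 0 in CKO, and Slc5a1 and Slc2a5 are filled above 0 in flox.

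Groups that did not overlap were counted on the same values. In CKO, 5 members were lower in every NEC library than in every uninjured library, against 28.6% of all genes tested, and 0 were higher, against 25.0%. In flox, 2 members were higher in every NEC library, against 33.3% of genes, and 3 were lower, against 31.6%. Summed over the 7 brush border members, the level was 408 ± 62.0 FPKM in CKO NEC and 581 ± 101 in CKO control, and 394 ± 49.1 in flox NEC and 358 ± 74.4 in flox control (SD, n = 3 each). Summed over the 3 basolateral members, it was 73.1 ± 12.7 FPKM in CKO NEC and 136 ± 9.08 in CKO control, and 65.2 ± 9.90 in flox NEC and 98.6 ± 9.49 in flox control. Within each genotype the basolateral sum was lower in every NEC library than in every uninjured one, and the brush border sum overlapped between conditions in flox.

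Markers of other cells and the mitochondrial share differed between the conditions. Mitochondrially encoded genes took 3.47% to 4.43% of reads in CKO NEC, against 5.11% to 6.76% in CKO control, and 3.804% to 4.52% in flox NEC, against 11.1% to 14.3% in flox control. The summed level of the 10 smooth muscle markers was 560 to 2131 FPKM in CKO NEC, against 222 to 662 in CKO control, and 1884 to 2967 in flox NEC, against 759 to 968 in flox control. The summed level of the 12 fibroblast and matrix markers was 465 to 784 FPKM in CKO NEC, against 136 to 326 in CKO control, and 701 to 955 in flox NEC, against 323 to 526 in flox control. The summed level of 16 other enterocyte markers was 9388 to 13334 FPKM in CKO NEC, against 19802 to 29399 in CKO control, and 7539 to 12126 in flox NEC, against 20999 to 26399 in flox control. Most of that sum came from Apoa1 and Apoa4, apolipoproteins that enterocytes secrete: Apoa1 averaged 3733 FPKM in CKO NEC and 11231 in CKO control, and 2981 in flox NEC and 11853 in flox control. Of the 16 markers 2 were called higher and 6 lower in CKO, and 2 higher and 8 lower in flox. The sucrase gene Sis rose by 4.73 ± 0.41 in CKO and by 5.82 ± 0.30 in flox (adjusted p = 0.00121 and 4.42e-05), and Mttp, which loads lipoproteins, rose by 0.60 ± 0.20 and by 1.56 ± 0.25 (adjusted p = 0.0496 and 0.00169). The falls with the smallest p in CKO were Ace (-2.32 ± 0.28, adjusted p = 0.00236) and Lct (-3.99 ± 0.74, adjusted p = 0.00753). In flox they were Alpi (-1.54 ± 0.17, adjusted p = 3.24e-04) and Apoa1 (-2.02 ± 0.22, adjusted p = 3.45e-04). The pan-epithelial sums given above overlapped between conditions, but single markers moved both ways. Of the 12 pan-epithelial markers 2 were called higher and 2 lower in CKO, and 5 higher and 4 lower in flox. Of all genes, 37.9% were called in either direction in CKO and 56.5% in flox. Krt19 rose by 2.29 ± 0.31 in CKO and by 1.98 ± 0.25 in flox, while Elf3 fell by 0.69 ± 0.15 and by 0.86 ± 0.17. The 12 immune cell markers summed to 48.1 to 65.2 FPKM in CKO NEC, against 136 to 153 in CKO control, and 60.7 to 74.3 in flox NEC, against 138 to 159.7 in flox control. Csf1r, the largest part of these sums, averaged 17.9 FPKM in CKO NEC and 68.1 in CKO control. In flox mice Csf1r averaged 20.6 FPKM with NEC and 68.6 without. Of the 7 immune markers tested in each genotype 0 lay above 0. Of these, 5 were called lower in CKO and 4 in flox. Adgre1 and S100a9, both low, had higher NEC means in both genotypes (Adgre1 in CKO 1.02 against 0.659 FPKM). The 10 crypt and stem cell markers summed to 121 to 196 FPKM in CKO NEC, against 69.8 to 98.8 in CKO control, and 124 to 128 in flox NEC, against 64.1 to 102 in flox control. The 10 pancreas markers summed to at most 24.1 FPKM in any library, and Cela2a and Try4 were at 0 in all 4 groups. The part of cell composition or of the mitochondrial share in the transporter changes was not tested.

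Whether the genotype difference depends on NEC was tested in 1 fit over all 12 libraries. No member passed, while 113 of 14609 genes did (0.773%). At an unadjusted p under 0.05, 2 members and 20.7% of all genes passed, and limma-voom called 0 members. For 9 of 10 members the difference of differences was below 0, with a median of -0.43, beside -0.01 over all genes tested. Slc3a1 had the value furthest from 0, -1.18 ± 0.34 (SE, adjusted p = 0.0930), and it passed without flox control 3 (-1.39, adjusted p = 0.0435). Slc15a1 stood at -0.9999 ± 0.44 (adjusted p = 0.227), Slc5a1 at -0.88 ± 0.40 (adjusted p = 0.242) and Slc6a19 at -0.83 ± 0.40 (adjusted p = 0.267). The carriers called in flox or CKO tissue alone, Slc3a1, Slc5a1 and Slc2a5 (0.13 ± 0.36, adjusted p = 0.877), are therefore not shown to change differently between the genotypes. The 3 carriers that fell in both had values of -0.32 ± 0.26 (Slc7a7), -0.26 ± 0.32 (Slc7a9) and -0.15 ± 0.21 (Slc7a8). Slc2a2 stood at -0.54 ± 0.36 and Slc1a1 at -0.06 ± 0.55, the widest error of the 10.

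Ratios of carriers that work together are free of the scaling of a library, and they were chosen after the values were seen, so they are given with no test. The ratio of Slc7a9, the light chain, to its heavy chain Slc3a1 was 1.74, 1.59 and 1.99 in CKO NEC libraries, 1.61, 1.67 and 1.79 in flox NEC libraries, 2.01, 1.98 and 1.84 in CKO control libraries, and 4.31, 3.38 and 3.08 in flox control libraries. The flox control libraries stood apart from the other 9, whose ratios ran from 1.59 to 2.01. The ratio of Slc2a2, the basolateral sugar exit, to Slc5a1, the brush border entry, was 0.0865, 0.0843 and 0.164 in CKO NEC libraries, 0.105, 0.101 and 0.112 in flox NEC libraries, 0.240, 0.220 and 0.221 in CKO control libraries, and 0.358, 0.322 and 0.198 in flox control libraries. Every NEC library was below every uninjured library for this ratio. The ratio of Slc7a7, the basolateral exit of dibasic amino acids, to Slc7a9, their brush border entry, averaged 0.407 in CKO NEC, 0.398 in flox NEC, 0.362 in CKO control and 0.349 in flox control, and overlapped between all groups.

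**Figure D4:**
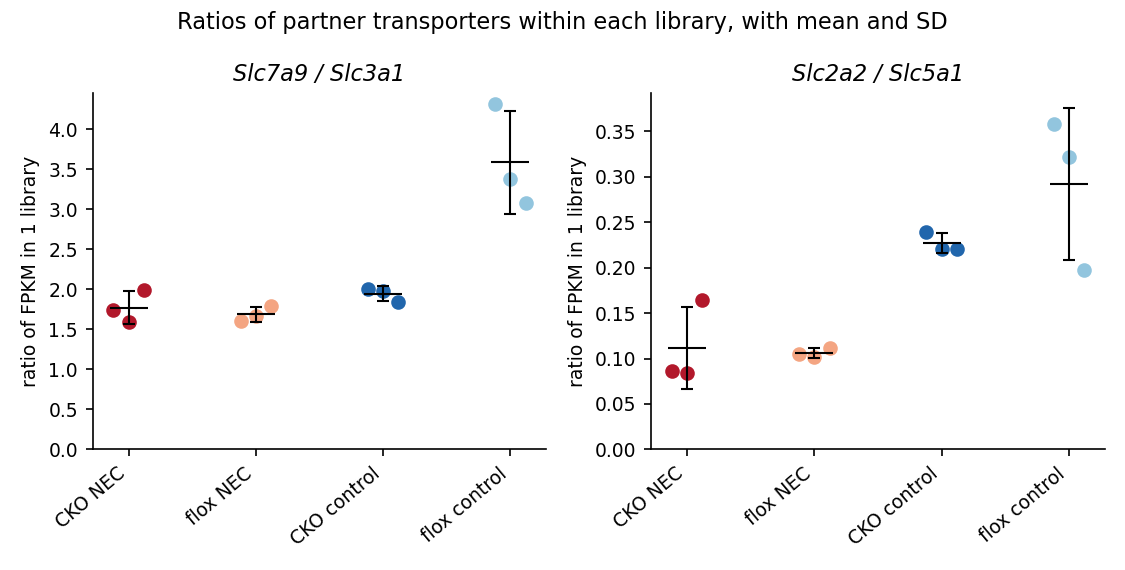
Ratio of FPKM within each library for Slc7a9 over Slc3a1 (left) and Slc2a2 over Slc5a1 (right), with 1 point per library and the mean and SD of each group. Slc7a9 over Slc3a1 averaged 1.77, 1.69 and 1.94 in CKO NEC, flox NEC and CKO control, and 3.59 in flox control.

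Single libraries carried much of the spread within groups, and sums of regional markers moved with them. The 8 markers of proximal small intestine, such as Gata4 and Lct, summed to 657, 75.1 and 87.7 FPKM in CKO NEC libraries, 104, 216 and 84.7 in flox NEC libraries, 611, 580 and 660 in CKO control libraries, and 513, 1040 and 182 in flox control libraries. In CKO NEC 1 and flox control 2 that sum was largely Fabp1, at 576 and 776 FPKM. Gata4, Lct and Fabp1 were highest of their group in CKO NEC 1 and lowest in flox control 3. Slc40a1 and Hoxb6 went the other way, lowest in CKO NEC 1 and highest in flox control 3. The other proximal markers followed neither pattern in both libraries. The 8 markers of distal small intestine, such as Fabp6 and Slc10a2, summed to 776, 1828 and 2249 FPKM in CKO NEC libraries, 1527, 1529 and 1391 in flox NEC libraries, 1850, 1896 and 3380 in CKO control libraries, and 923, 1099 and 2890 in flox control libraries. The distal sum was largely Clca4b, with 373, 1489 and 1710 FPKM in CKO NEC libraries, 973, 1085 and 967 in flox NEC libraries, 1637, 1652 and 2747 in CKO control libraries, and 668, 858 and 1774 in flox control libraries. Apart from Clca4b, Slc10a2, the ileal bile acid carrier, rose with NEC by 3.02 ± 0.41 in CKO and by 3.22 ± 0.71 in flox (adjusted p = 0.00337 and 0.00667), and Fabp6, which binds bile acids, rose by 2.49 ± 0.45 in CKO (adjusted p = 0.00667). Hoxb9 rose in flox by 2.38 ± 0.58 (adjusted p = 0.0101), while Cubn fell in CKO by 0.996 ± 0.31 (adjusted p = 0.0423). The median log2 change with NEC over the 7 distal markers tested was 0.17 in CKO and 0.0016 in flox. Of these markers only Hoxa10 was at 0 in whole groups, in all but CKO NEC. CKO NEC 1, with the highest proximal and the lowest distal sum of its group, had the group's highest Slc5a1, Slc2a5 and Slc7a8 and its lowest Slc15a1, Slc6a19, Slc7a9 and Slc3a1. Flox control 3, with the lowest proximal and the highest distal sum of its group, had the group's highest Slc5a1, Slc15a1, Slc6a19, Slc7a9, Slc3a1, Slc1a1 and Slc7a7 and its lowest Slc2a5, Slc2a2 and Slc7a8. Slc5a1 was thus highest in both of these libraries. The part of the sampled stretch of intestine in these differences was not tested.

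**Figure D5:**
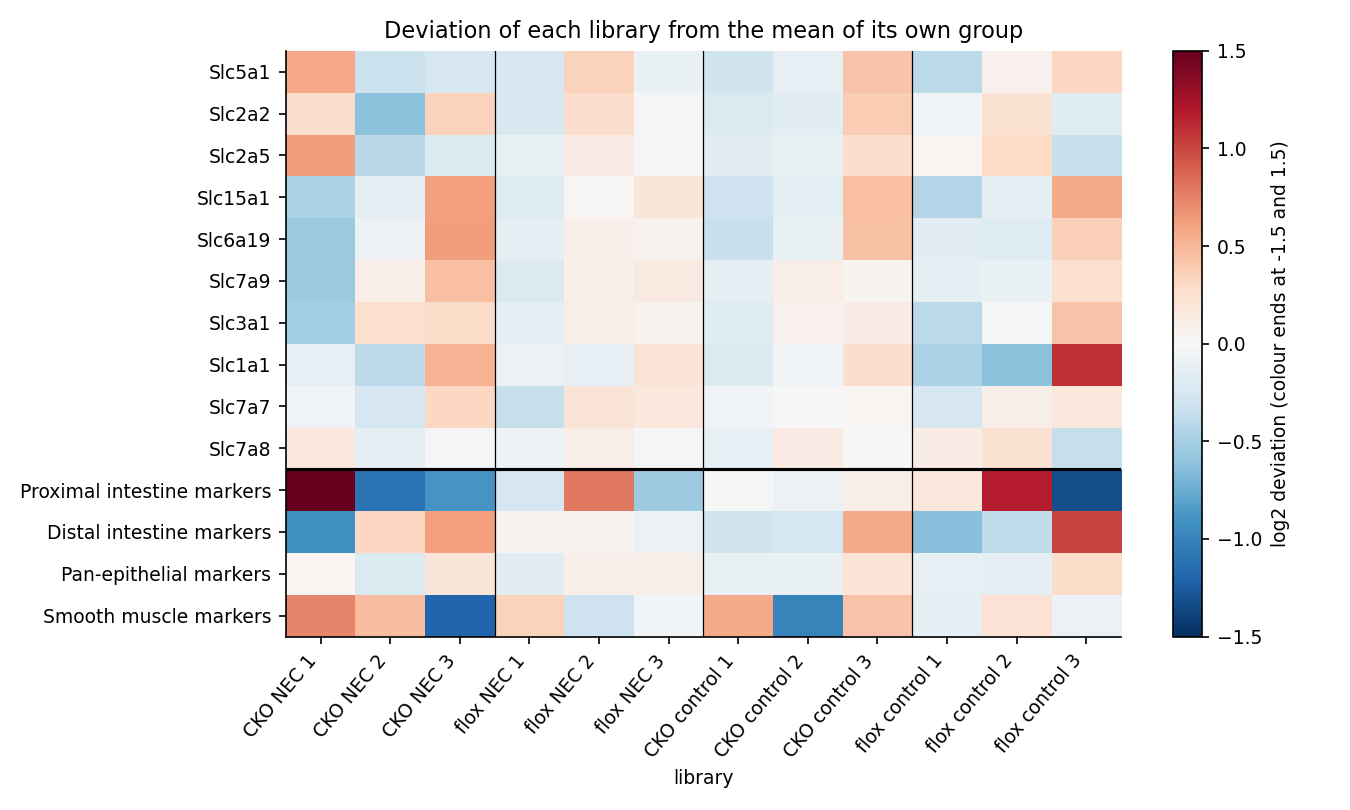
Deviation of each library from its group mean on the log2 scale (jointly scaled FPKM plus 1) for the 10 transporters and for the summed proximal, distal, pan-epithelial and smooth muscle markers, with libraries ordered CKO NEC, flox NEC, CKO control, flox control. In CKO NEC 1 Slc5a1 deviates by 0.58 and Slc2a5 by 0.63 while Slc15a1 deviates by -0.47, and in flox control 3 Slc15a1 deviates by 0.57 while Slc2a5 deviates by -0.33.

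Other transporters of sugars and amino acids were called with NEC in both directions, at shares to be read against those of all genes, 17.5% higher and 20.4% lower in CKO and 28.7% higher and 27.8% lower in flox. In CKO, 1 of 9 other sugar transporters tested was called higher and 3 lower, and in flox 2 of 10 higher and 3 lower. Slc2a8, an intracellular glucose carrier, fell by 1.63 ± 0.18 in CKO (adjusted p = 0.00200) and by 1.42 ± 0.10 in flox (adjusted p = 9.10e-05) on the log2 scale. Slc5a9, a sodium-coupled sugar carrier, fell by 1.09 ± 0.13 in CKO and by 1.16 ± 0.12 in flox. Slc2a9, a urate carrier, rose in flox by 0.80 ± 0.15, and Slc5a11, an inositol carrier, fell in CKO by 0.92 ± 0.25. Slc2a9 also had a higher NEC mean in CKO (5.22 against 3.19 FPKM), and Slc5a11 a lower one in flox (12.3 against 23.8 FPKM). Of other amino acid and peptide transporters, 5 of 25 were called higher and 7 lower in CKO, and 10 of 26 higher and 7 lower in flox. Slc7a1, a cationic amino acid carrier found in most cells, averaged 7.22 ± 0.901 FPKM in CKO NEC and 2.40 ± 0.379 in CKO control, and 7.46 ± 0.160 in flox NEC and 1.52 ± 0.200 in flox control (log2 changes 1.27 ± 0.14 and 1.75 ± 0.11, adjusted p = 0.00195 and 6.55e-05). Slc38a6 fell by 1.47 ± 0.15 in CKO and by 1.79 ± 0.13 in flox, Slc38a7, a lysosomal glutamine carrier, fell in flox by 1.14 ± 0.11, and Slc38a2, a neutral amino acid carrier, rose in CKO by 0.76 ± 0.12. On average Slc38a7 was also lower with NEC in CKO (19.6 against 49.5 FPKM), and Slc38a2 higher in flox (19.2 against 12.1 FPKM).

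Between genotypes none of these other transporters passed. In uninjured tissue Slc16a10, a basolateral carrier of aromatic amino acids, had a CKO minus flox log2 change of 0.63 ± 0.14 (adjusted p = 0.0642), and Slc36a1, a proton-coupled carrier of small amino acids, one of 0.41 ± 0.10 (adjusted p = 0.0675). Slc2a4, the insulin-responsive glucose carrier of muscle and fat, had a log2 change of -0.88 ± 0.23 (adjusted p = 0.0726). The median was 0.33 over the 23 other amino acid and peptide transporters tested and 0.08 over the 9 other sugar transporters, beside 0.52 over the members.

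Carriers depend on partner proteins and on the sodium pump. Of 10 partners and pumps tested, 4 were called higher and 2 lower with NEC in CKO, and 4 higher and 3 lower in flox, where 37.9% (CKO) and 56.5% (flox) of all genes were called in either direction. Atp1b1, a beta subunit of the sodium pump, which keeps the gradient that sodium-coupled carriers use, rose by 1.05 ± 0.26 in CKO and by 1.71 ± 0.27 in flox (adjusted p = 0.0192 and 0.00149). Pdzk1ip1, a membrane protein that binds sodium-glucose carriers, fell by 2.45 ± 0.37 in CKO and by 3.09 ± 0.17 in flox (adjusted p = 0.00419 and 4.60e-05). Pdzk1, a brush border scaffold, fell in CKO by 1.70 ± 0.34, and averaged 17.2 FPKM in flox NEC, against 33.5 in flox control.

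Of 11 enzymes and regulators that handle fructose and galactose after uptake, 3 were called higher and 5 lower with NEC in CKO, and as many in flox, beside the same background of 37.9% and 56.5%. Fbp1, a gluconeogenic phosphatase, fell by 2.84 ± 0.26 in CKO (adjusted p = 0.00134), G6pc, which releases free glucose, fell by 2.22 ± 0.14 in flox (adjusted p = 8.16e-05), and Galk1, galactokinase, fell by 1.63 ± 0.19 in CKO and by 1.61 ± 0.16 in flox. Mlxipl, a sugar-responsive transcription factor, rose by 1.52 ± 0.19 in CKO. The means of the other genotype moved the same way on the joint scale. Fbp1 averaged 46.4 FPKM in flox NEC and 163 in flox control, and G6pc 19.6 in CKO NEC and 82.8 in CKO control. Mlxipl averaged 23.7 FPKM in flox NEC and 10.4 in flox control. In uninjured tissue Fbp1 had a CKO minus flox log2 change of 1.07 ± 0.20 and G6pc one of 0.71 ± 0.13, at adjusted p = 0.0547 each. Of the sugar and amino acid sensing list, 2 of 10 genes were high enough to test, and Mlxip rose with NEC by 0.70 ± 0.12 in CKO and by 0.86 ± 0.11 in flox.

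Of 13 transcription factors of enterocytes, Hnf4g alone passed the test of the interaction. All 13 lay above 0 for CKO minus flox in uninjured tissue, with a median of 0.40 and 0 called. Hnf4g, a nuclear receptor that drives absorptive genes, averaged 48.7 ± 2.55 FPKM in CKO NEC, 46.0 ± 6.91 in flox NEC, 41.7 ± 2.64 in CKO control and 14.2 ± 2.67 in flox control on the joint scale (SD, n = 3 each). Flox control stood below the other groups, and the interaction passed at -1.41 ± 0.20 (adjusted p = 0.0385). That call was lost with no filter on low values (adjusted p = 0.0523), with no variance trend (0.0501) and without any 1 of 9 of the 12 libraries, all but CKO NEC 3, CKO control 3 and flox control 3, at adjusted p up to 0.120. Hnf4g rose with NEC in flox by 1.63 ± 0.16 (adjusted p = 2.57e-04) and had 0.22 ± 0.12 in CKO (adjusted p = 0.196). Its CKO minus flox log2 change in uninjured tissue was 1.498 ± 0.15 (adjusted p = 0.0547). With NEC, Klf5 rose by 0.58 ± 0.12 in CKO and by 0.94 ± 0.15 in flox, while Prdm1, a repressor active in the suckling gut, fell by 1.26 ± 0.34 and by 0.96 ± 0.11.

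The genes whose pattern over the 12 libraries was most like each member were found by the root mean square difference between log2 profiles, each less its own mean, over 11443 genes. The nearest to Slc7a9 was Il4ra (0.103), to Slc7a7 Prkcsh (0.122), to Slc3a1 Ncoa4 (0.130) and to Slc7a8 Gpx1 (0.140). For Slc6a19 it was Retreg1 (0.137), which was also second for Slc15a1 after Chp2 (0.143 for Chp2, 0.178 for Retreg1). Slc2a2 was nearest to Slc35c2 (0.152), Slc1a1 to Hpgd (0.177), Slc2a5 to Cldn15 (0.185) and Slc5a1 to Atl2 (0.187). Among the members themselves, Slc15a1 and Slc6a19 lay 0.228 apart, with 6 other genes nearer to Slc15a1 and 66 nearer to Slc6a19. Slc7a9 and Slc7a7 lay 0.221 apart, with 199 other genes nearer to Slc7a9 and 256 nearer to Slc7a7. Slc7a9 and Slc3a1, which form 1 carrier, were not each other's nearest member, since Slc3a1 lay nearest to Slc6a19 (0.289).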

How the data were processed

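RNA was isolated with Trizol from small intestine and libraries were made with an NEBNext Ultra II kit, per the labels' protocols. Aligner, counter and strand setting are not named in the labels or the tables. The authors deposited FPKM in 2 tables, 1 per condition, each with 6 libraries and 54532 genes. The positions of 53499 genes, 98.3% of the matched IDs, equal those of GENCODE M21 (GRCm38). Deposited FPKM were multiplied by gene length and divided by the smallest step of each library, which gave whole reads for 100% of values (tolerance 0.05). The number of reads limits the precision of the low members most.

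Genotypes were compared on log2(deposited FPKM + 1) with limma 3.58.1 (R 4.3.3), moderated statistics and a mean-variance trend. Genes were kept with 1 FPKM or more in 3 or more fitted libraries, and Benjamini-Hochberg adjusted p was held to 0.05. NEC and interaction tests used reads divided by median-of-ratios size factors over all 12 libraries. The steps were tested on simulated data. Alternatives were a pseudocount of 0.1, other filters and scalings, a replicate block, limma-voom, 1 fit of 4 groups and leaving out each library. All members were named, plus up to 3 genes with the smallest p per list and comparison. Where a list had no gene past the threshold, up to 2 genes were given as values. Some genes, such as Mttp and Slc3a2, were named outside this rule. Results of 2 genes of the partner and pump list are not reported here. Members and lists were chosen with earlier results of these data known. All 66 pairs of libraries differed, in at least 25349 genes. The tables' unused per-sample columns number 0, and Tmem27 and Map17 were not matched by name. Other work used Python 3.11.15, numpy 2.4.6, pandas 2.3.3 and matplotlib 3.10.9.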

Additional observations from a re-analysis of the deposited data

How the results depend on the processing

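Calls among the uninjured genotypes depended most on the settings. Genes called there numbered 1 of 13300 tested, but 0 of 29308 with no filter and 760 of 7321 at a mean FPKM of at least 5. They numbered 735 of 13300 with limma-voom, 2090 of 14609 with all 4 groups in 1 fit and 903 of 13300 with the replicate block. Members called higher in CKO there numbered 0, but 2 at that mean FPKM (Slc3a1 and Slc15a1), 2 with limma-voom, 3 with the 4 groups and 4 with the block. In the order of those 4 settings, 626 of 7321, 591 of 13300, 1466 of 14609 and 700 of 13300 genes were called higher. In flox, NEC genes called numbered 7751 of 13730 tested, but 4834 of 7567 at a mean FPKM of at least 5. Members higher there numbered 2, but 1 with no filter, 1 at that mean FPKM, 4 with quantile normalization, 1 with equal medians and 1 with the 4 groups. In that order, 3767 of 29715, 2242 of 7567, 4067 of 13730, 3496 of 13730 and 3969 of 14609 genes were called higher. Members lower numbered 3, but 1 with quantile normalization, which called 3727 of 13730 genes lower. In CKO, NEC genes called numbered 5059 of 13355 tested, but 3220 of 7568 at that mean FPKM. Members lower there numbered 4, but 7 with the block, which added Slc2a2, Slc15a1 and Slc6a19. Of all genes tested, 2727 of 13355 were called lower, and 2558 of 13355 with the block. Interaction genes numbered 113 of 14609 tested, but 6 of 32011 with no filter, 344 of 7574 at that mean FPKM and 181 of 14808 on the deposited scale. Of 14609 tested, they numbered 247 with quantile normalization, 38 with equal medians and 3 with no variance trend. Members lower numbered 0, but 1 (Slc3a1) with the block, which called 93 of 14609 genes lower. The low members Slc2a5 and Slc1a1 give no value at a mean FPKM of at least 5. A mean FPKM of at least 5 left fewer genes to test, and its counts moved both ways. The causes were not tested.

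On the deposited scale the median NEC change of all genes was 0.14 in flox and 0.10 in CKO, and 61.1% of flox calls and 60.4% of CKO calls were higher, against 50.8% and 46.1% on the joint scale. At a mean FPKM of at least 5, 36.0% of CKO calls were higher. Of the interaction calls 18.6% were higher, against 36.8% with quantile normalization.

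Uncalled members changed sign with quantile normalization in NEC (CKO minus flox: Slc7a9 -0.038, Slc3a1 -0.074, Slc1a1 0.0012) and without injury (Slc2a5 0.062), and Slc1a1 in NEC with equal medians (0.0038) and the 4 groups (0.0088).

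Leaving out each library in turn gave 0 to 1 genes called between genotypes in NEC and 0 to 830 without injury, where 0 to 2 members were called higher. NEC calls numbered 6169 to 7751 in flox, with 1 to 4 members higher, and 3025 to 4418 in CKO, with 3 to 4 members lower. Interaction calls numbered 0 to 535, with 0 to 1 member lower. Without flox control 3 the counts were 830 of 12993 without injury (677 higher) and 535 of 14441 for the interaction (421 lower). CKO minus flox in NEC ran from -0.35 to 0.12 for Slc5a1, -0.21 to 0.26 for Slc2a2, -0.22 to 0.31 for Slc2a5, -0.12 to 0.41 for Slc15a1, -0.38 to 0.19 for Slc6a19, -0.15 to 0.34 for Slc7a9, -0.12 to 0.27 for Slc3a1, -0.26 to 0.19 for Slc1a1 and -0.11 to 0.18 for Slc7a7. Without injury it ran from -0.18 to 0.13 for Slc2a5 and -0.24 to 0.62 for Slc1a1. The NEC change ran from -0.016 to 0.49 for Slc5a1 in CKO and -0.026 to 0.39 for Slc3a1 in flox. The interaction ran from -0.19 to 0.33 for Slc2a5, -0.49 to 0.015 for Slc7a9, -0.61 to 0.24 for Slc1a1 and -0.26 to 0.024 for Slc7a8.

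Same-numbered libraries were not always the most alike. Their deviations correlated at 0.17, -0.12 and 0.07 between genotypes in NEC and at 0.11, -0.03 and 0.36 without injury. Between conditions they correlated at 0.11, -0.02 and -0.0056 in CKO and at -0.001, -0.04 and 0.10 in flox. In each of these comparisons at least 1 library correlated best with another number. Slc2a5 had 39 to 282 reads and Slc1a1 117 to 641 reads in a library, the fewest of the 10.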
